A study of Mus musculus with 5 samples.

Results

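The comparison set mouse helper T cells at day 10 of activation against the same kind of cells at day 3. It used 4 of the 5 arrays in the series, chosen by the time of activation in the labels, and 171 of the 178 features on each array, those for microRNAs. The cells were CD4+25- T cells, that is CD4-positive cells without the CD25-positive population, which is rich in regulatory T cells. Day 3 was the group of cells activated for 3 days (2 arrays) and day 10 that of cells activated for 10 days (2 arrays), and all 4 arrays held total RNA of unactivated CD4+25- T cells, called naive here, in the other channel. Each pair was a dye swap: activated RNA carried Cy5 on 1 array and Cy3 on the other. The strain, the age of the mice, the means of activation and the culture conditions were not given in the sources used here, nor was it stated whether cells were pooled. Nor do the labels say whether the arrays of a pair held separate RNA extracts, so a pair may be 1 sample, and any p-value given here then covers no more than array-to-array spread, part or all of it technical.

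Each value is a deposited log ratio of activated over naive RNA for 1 probe on 1 array, read as log2. The log base and the numerator were not stated in those sources, and Cy5 over Cy3 was taken as the likely direction. Should the ratio be Cy3 over Cy5, higher and lower change places throughout. Arrays with activated cells in Cy3 had their sign turned (-1), each pair was averaged, and the day 3 mean was subtracted from the day 10 mean. Because naive RNA is the control of both days, the level in naive cells cancels in this difference only as far as the naive RNA was the same on all arrays. A probe was counted as higher or lower at day 10 where the difference was at least 1 on the log2 scale, which is 2-fold, and where both arrays of one day lay above both arrays of the other. A ratio of bulk RNA does not tell a microRNA's level per cell from the share of cells that hold it. It also does not show whether a microRNA was present, so the lymphocyte markers miR-142, miR-150, miR-155 and miR-181, all with probes, could not be used to check the cell type. Where an annotation table gave a probe 1 gene the microRNA is named, and otherwise the probe ID is given and its number was read as that of the microRNA.

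MicroRNAs are short RNAs that guide Argonaute proteins to messenger RNAs, mostly through pairing of the seed, the bases near the 5′ end, and so lower the output of their targets. Naive lymphocytes carry a stable set of them, among which miR-150, miR-26, miR-142 and the let-7 family are prominent. After antigen receptor stimulation mature microRNAs are broadly turned over and a smaller set is induced, of which miR-155, processed from the Bic transcript, is the best known. As stimulation ends, T cells that survive return toward rest or pass into memory and effector states.

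The sequences below are the mature microRNAs on which the results turn, from RefSeq (GRCm38.p6), with the seed (bases 2 to 8) in capitals. They are those of the microRNAs as the probe IDs were read, not of the printed probes. Of 90 probe IDs matched to a mature name, 86 had an entry, and 63 of these fell into 22 groups of shared seed. The first set holds microRNAs that were high at day 3 and near or below the naive level at day 10.
miR-155-5p: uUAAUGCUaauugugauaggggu
miR-214-3p: aCAGCAGGcacagacaggcagu
miR-31-5p: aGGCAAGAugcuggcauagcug
miR-132-3p: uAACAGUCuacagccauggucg
miR-212-3p: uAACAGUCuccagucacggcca
miR-183-5p: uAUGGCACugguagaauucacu
Of these, miR-132 and miR-212 share a seed, and each of the others has a seed of its own in the set. The second set holds microRNAs that were below the naive level at day 3 and higher at day 10, with miR-195a as a carrier of the miR-15/16 seed that was not counted.
let-7a-5p: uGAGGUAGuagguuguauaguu
let-7c-5p: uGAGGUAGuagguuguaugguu
let-7i-5p: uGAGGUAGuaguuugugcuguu
let-7g-5p: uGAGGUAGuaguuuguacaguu
miR-26a-5p: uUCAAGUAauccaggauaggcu
miR-26b-5p: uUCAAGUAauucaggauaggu
miR-15a-5p: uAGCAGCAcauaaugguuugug
miR-16-5p: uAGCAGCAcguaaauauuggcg
miR-195a-5p: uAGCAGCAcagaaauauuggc
miR-30c-5p: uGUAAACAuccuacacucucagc
The third set holds the pair of a shared seed whose difference was least alike, and microRNAs above naive by at least 2-fold on both days.
miR-148a-3p: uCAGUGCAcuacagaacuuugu
miR-152-3p: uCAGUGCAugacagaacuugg
miR-210-3p: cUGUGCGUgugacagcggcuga
miR-221-3p: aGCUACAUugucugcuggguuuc
miR-222-3p: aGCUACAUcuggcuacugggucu

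Across the 171 probes the spread around naive was narrower at day 10 than at day 3. The SD of the log2 ratios across probes was 1.98 and 1.77 on the day 3 arrays and 1.32 and 1.25 on the day 10 arrays. By the size rule 22 probes (12.9%) were higher at day 10 and 71 (41.5%) were lower. The 22 probes had a median log2 ratio of -2.21 at day 3 and -0.59 at day 10. The 71 probes had a median of 1.21 at day 3 and -0.66 at day 10. In both groups the day 10 values therefore lay nearer to naive in the median than the day 3 values. As a pair mean enters both the level and the difference, this relation is a description and was not tested.

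The arrays had not been centred, and the split between higher and lower depended on this. Array medians were 0.20 and 1.42 at day 3 and -0.51 and -0.38 at day 10, and the median difference over all probes was -1.22. Setting every array's median to 0 (centring), which adds 1.26 to every difference, gave 48 probes higher (28.1%) and 23 lower (13.5%). All 22 probes counted as higher and 23 of the 71 counted as lower as deposited were counted in the same direction under centring. As this centring raises every difference, the 22 could have been lost only through pairs that came to overlap. Centring on the 7 probes for transfer RNAs and other small RNAs instead gave 9 higher and 120 lower. Which of these baselines stands for an equal amount of microRNA cannot be told from the values. Differences and positions relative to naive below are as deposited, with the centred difference given where it changes a count.

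**Figure D1:**
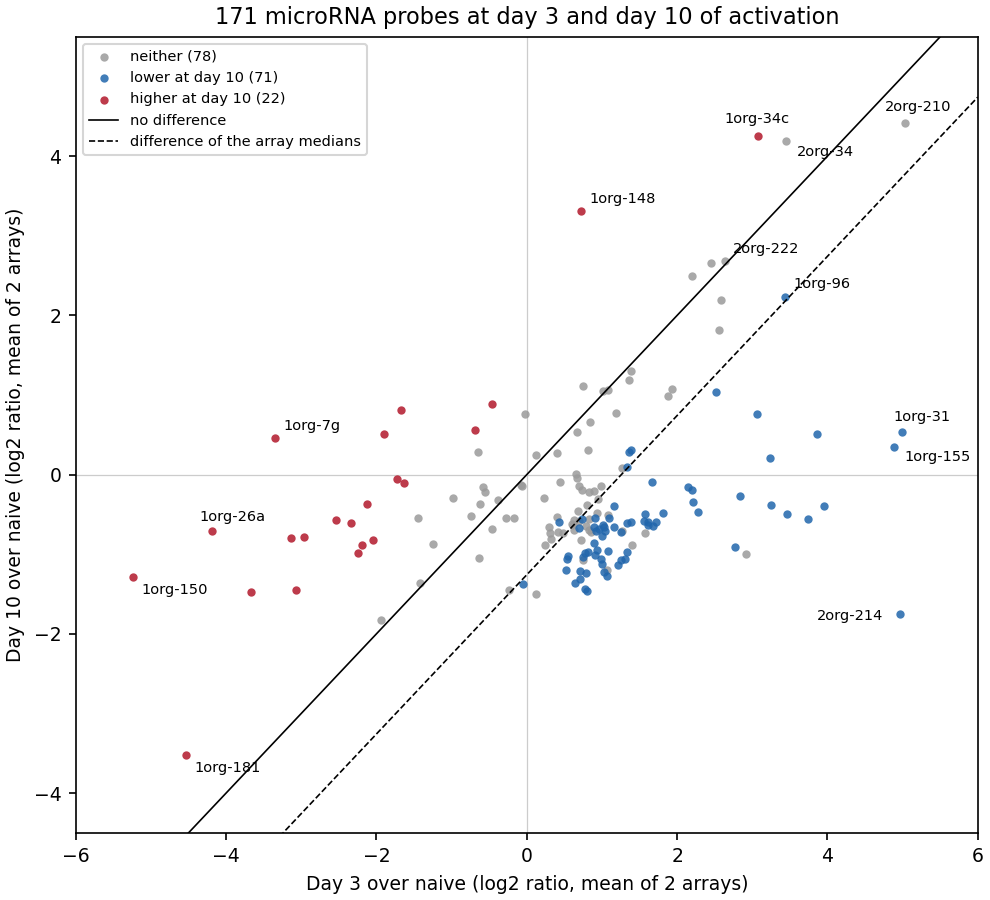
Log2 ratio of activated over naive RNA for each of the 171 microRNA probes at day 3 (x axis) and day 10 (y axis), each point the mean of 2 arrays of opposite dye. The solid line marks no difference, the dashed line the difference of the array medians (-1.26). The 22 probes counted as higher lie mostly at the left, below naive at day 3, and the 71 counted as lower mostly at the right.

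With limma over the 4 arrays (a term for the day, a dye term, Benjamini-Hochberg threshold 0.05), 15 probes (8.77%) were higher and 75 (43.9%) lower at day 10. All 15 and 63 of the 75 met the size rule as well. After centring limma gave 37 higher (21.6%) and 13 lower (7.6%), of which 37 and 11 met the size rule. Limma's moderation pooled the variance over all probes. Every probe had the same SE, 0.63 as deposited and 0.54 after centring, on 171 degrees of freedom. The SE is therefore not the spread of any 1 probe. With a common SE, a limma p-value here follows the size of the difference alone. The probes share their arrays and are not replicates of a day.

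The 5 probes with the largest falls were all among the microRNAs of lymphocyte activation, a list chosen with earlier results of these data known. Of 14 probes in this list, 9 were lower at day 10 and 0 higher, around a median difference of -2.09 (all probes -1.22, with 41.5% lower and 12.9% higher). After centring 7 were lower and 3 higher, around -0.83 (all probes 0.04, with 13.5% lower and 28.1% higher). The 3 higher were miR-21 (1org-21), 2org-221 and 2org-222, which are described further below with 2org-210, also of this list. Limma called 8 lower as deposited, against 43.9% of all probes. After centring it called 6 lower and 2 higher, against 7.6% and 21.6% of all probes. The list's median log2 ratio over naive was 3.59 at day 3 and 0.43 at day 10.

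MiR-155 (1org-155), which promotes helper T cell proliferation and cytokine production, had log2 ratios of 4.89 and 4.87 on the day 3 arrays and 0.47 and 0.22 on the day 10 arrays. The pairs were far apart, and at day 10 it stood within 2-fold of naive on both arrays. The difference of -4.53 is a 23.2-fold fall (9.68-fold after centring), with a limma adjusted p = 2.0e-09 (centred, adjusted p = 1.6e-07). Its mature sequence lies at chr16:84714143-84714165 on the plus strand, inside the noncoding host gene Mir155hg.

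Probe 2org-214, numbered as miR-214, had the largest difference of all, -6.71. Its log2 ratios were 4.53 and 5.40 at day 3 and -1.17 and -2.33 at day 10. As deposited it passed from above naive to more than 2-fold below it on both arrays of a pair. After centring the day 10 values were -0.66 and -1.94, so the first was within 2-fold of naive. Limma gave an adjusted p = 2.8e-18 as deposited and adjusted p = 1.1e-16 after centring. MiR-214 lies at chr1:162223438-162223459 on the plus strand, within the gene Dnm3 and the noncoding gene Dnm3os.

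MiR-31 (1org-31), reported to repress the regulatory T cell factor Foxp3, had log2 ratios of 4.30 and 5.68 at day 3 and 0.46 and 0.62 at day 10. Its difference was -4.45, with a limma adjusted p = 2.8e-09. It lies at chr4:88910614-88910635 on the minus strand, inside the noncoding gene Gm49890.

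MiR-212 and miR-132 are made from 1 transcript that responds to the factor CREB, and their mature sequences lie near each other on the plus strand of chromosome 11 (starts 75173443 and 75173723). MiR-212 (2org-212) had log2 ratios of 3.58 and 4.32 at day 3 and -0.46 and -0.33 at day 10. Probe 1org-132 had 3.40 and 4.09 at day 3 and -0.72 and -0.40 at day 10. As deposited both sets of day 10 values lay slightly below naive. After centring they were 0.05 and 0.05 for miR-212 and -0.21 and -0.01 for 1org-132. The differences were -4.35 and -4.30, 0.04 apart. The microRNAs share the seed printed above and differ at 5 positions in all, so a part of this likeness may be the same RNA read by both probes, which was not tested.

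Of the 3 microRNAs of the miR-183, miR-96 and miR-182 cluster, which sit on the minus strand of chromosome 6 in the noncoding gene Mirc35hg, the probes moved unequally. Probe 1org-183 had log2 ratios of 3.66 and 4.07 at day 3 and 0.27 and 0.75 at day 10, a difference of -3.35 (limma adjusted p = 4.7e-06). MiR-96 (1org-96) had 3.14 and 3.72 on the day 3 arrays and 2.06 and 2.41 on the day 10 arrays, and stayed above naive by over 4-fold on every array. Its difference of -1.20 met the size rule as deposited but was 0.06 after centring, and limma did not call it (adjusted p = 0.094). MiR-182 (1org-182) was near naive at both times, with pair means of 0.30 and -0.73 and pairs that overlapped. Probe 2org-182*, of the same number, had pair means of 0.80 and -1.46, and its difference of -2.26 was counted as lower. After centring it was at -1.0015, the counted fall nearest to the threshold. The gap between the probes is the same after centring, and it was not tested.

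Other probes with large falls outside the list also had day 10 values near naive. MiR-23b (1org-23b) had log2 ratios of 3.33 and 3.13 at day 3 and 0.48 and -0.06 at day 10, a difference of -3.02 (limma adjusted p = 4.6e-05). Probe 1org-127, numbered as the imprinted miR-127, had 2.73 and 1.82 at day 3 and -0.71 and -0.22 at day 10, a difference of -2.74. The remaining probes among the 12 largest falls that were counted were 1org-298 (-3.95), 1org-292-as (-3.68), 1org-297 (-3.64) and miR-207 (1org-207, -3.10). After centring the pairs of miR-207 overlapped and it was not counted (-1.84). Probe 1org-298 is annotated to more than 1 gene. For 1org-292-as the day 3 arrays were far apart, at 4.24 and 1.31.

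**Figure D2:**
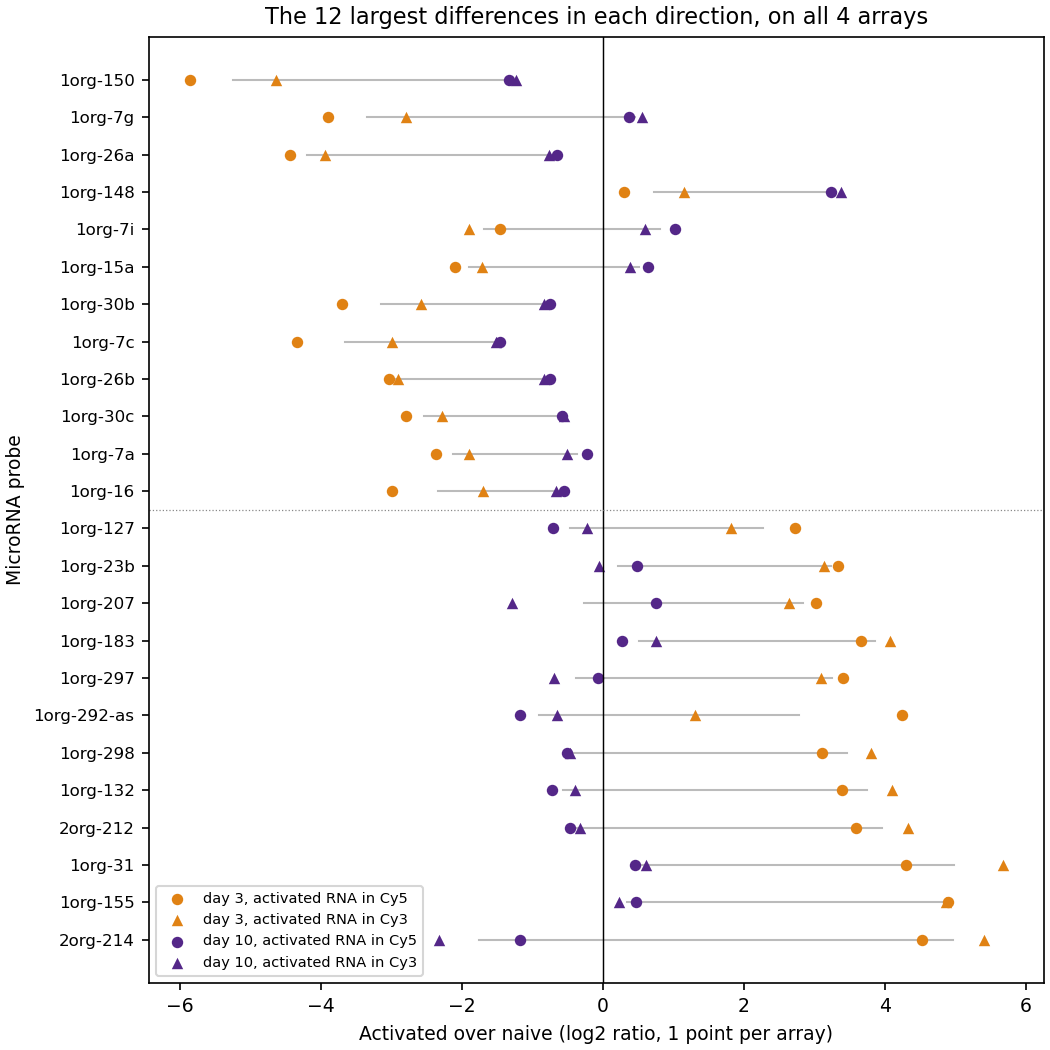
Log2 ratio of activated over naive RNA on each of the 4 arrays (1 point per array) for the 12 probes with the largest difference in each direction among those counted. For miR-155 the day 3 points are at 4.89 and 4.87 and the day 10 points at 0.47 and 0.22, and for 1org-150 they are at -5.86 and -4.63 and at -1.33 and -1.24.

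The list of resting lymphocyte microRNAs, like those below, was also chosen with earlier results of these data known, so its counts are a description. Its probes went the other way. Of 9 probes, 6 were higher at day 10 and 0 lower, around a median difference of 1.23 (12.9% of all probes were higher). After centring all 9 were higher, around 2.49 (28.1% of all probes). Limma called 3 higher as deposited and 8 after centring, against 8.77% and 21.6% of all probes. Probe 1org-150, numbered as miR-150, which restrains the factor Myb in lymphocytes, had log2 ratios of -5.86 and -4.63 at day 3 and -1.33 and -1.24 at day 10. The pairs did not overlap, and all 4 values were below naive. The difference of 3.96 was the largest rise, 15.6-fold (37.2-fold after centring), with a limma adjusted p = 8.1e-08.

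Both miR-26 probes were below naive at both times and nearer to it at day 10. Probe 1org-26a, numbered as miR-26a, known to target the histone methyltransferase Ezh2, had -4.44 and -3.94 at day 3 and -0.65 and -0.77 at day 10. Its difference was 3.48, with a limma adjusted p = 1.9e-06. MiR-26b (1org-26b) had -3.03 and -2.90 at day 3 and -0.74 and -0.83 at day 10, a difference of 2.18 (limma adjusted p = 0.0030). MiR-26b lies at chr1:74394324-74394344 on the plus strand in the gene Ctdsp1.

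The miR-142 and miR-181 probes had smaller differences. Probe 1org-142-as had a difference of 1.31, 2org-142* of 1.23 and 1org-142-s, for the other arm of the same hairpin, of 0.06. After centring 1org-142-s was counted as higher too (1.32). Probes 2org-181b and 2org-181c were at 0.12 and 0.22, and were counted as higher only after centring (1.38 and 1.48). Probe 1org-181, numbered as miR-181, which sets the sensitivity of the T cell receptor in thymocytes, had log2 ratios of -5.37 and -3.69 at day 3 and -3.48 and -3.57 at day 10. No probe had a pair mean further below naive at day 10 (-3.52). Its difference of 1.01 was the smallest that met the size rule on the higher side, and limma did not call it as deposited (adjusted p = 0.16, centred adjusted p = 0.00027). The next probe below the threshold was let-7d (1org-7d, 0.93), which was counted after centring (2.19).

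The let-7 family, which represses growth and cell cycle genes and is high in quiescent cells, was higher in most of its probes. Of 10 probes, 6 were higher at day 10 and 0 lower, around a median of 1.65 (12.9% of all probes were higher). After centring 9 were higher, around 2.90 (28.1% of all probes). Limma called the same numbers, 6 as deposited and 9 centred, against 8.77% and 21.6% of all probes. The list holds 2org-7 (-0.13), whose ID carries no letter and may stand for miR-7, and leaves out miR-98. Of the 9 microRNAs with the let-7 seed, miR-98 among them, 6 were higher (median 1.67) and 8 after centring (median 2.93). Let-7g (1org-7g) had log2 ratios of -3.90 and -2.79 at day 3 and 0.37 and 0.55 at day 10. It passed from below naive to slightly above it on both arrays, a 14.0-fold rise (limma adjusted p = 2.1e-07). Let-7i (1org-7i) likewise passed from -1.46 and -1.90 to 1.03 and 0.60, a difference of 2.49. Probe 1org-7c remained below naive, at -4.33 and -2.99 at day 3 and -1.45 and -1.51 at day 10, a difference of 2.18. Let-7g lies at chr9:106178846-106178867 on the plus strand in the gene Wdr82.

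Members that share the let-7 seed and differ by few bases did not all have like values. Counting from 1 at the 5′ end, let-7a differs from let-7c by A19G, and the probes 1org-7a and 1org-7c had differences of 1.76 and 2.18. Let-7e differs from let-7a by G9U, and let-7e (1org-7e) had a difference of 0.25, counted as higher only after centring (1.51). Let-7i and let-7g differ by G17A and U19A, with differences of 2.49 and 3.81. MiR-98 (1org-98), with the same seed, was at -0.93. Members this alike can hybridise to one another's probes, so the value of a single let-7 probe is uncertain.

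The miR-15/16 family targets cyclins and the survival factor Bcl2. Of its 4 probes 2 were higher (median 1.32), against 12.9% of all probes, and after centring 3 were (median 2.58), against 28.1%. Limma called 2 as deposited and 3 after centring, against 8.77% and 21.6% of all probes. MiR-15a (1org-15a) had log2 ratios of -2.09 and -1.71 at day 3 and 0.63 and 0.38 at day 10, a difference of 2.41 (limma adjusted p = 0.0017). Probe 1org-16 had -2.99 and -1.70 at day 3 and -0.55 and -0.67 at day 10, a difference of 1.73 (limma adjusted p = 0.017). MiR-15b (1org-15b) was at 0.91, under the 2-fold threshold as deposited and counted after centring (2.16), and miR-195 (1org-195) at -0.83. MiR-15a lies at chr14:61632075-61632096 on the minus strand in the noncoding gene Dleu2.

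In the miR-30 list 3 of 6 probes were higher and 0 lower, as deposited and after centring, with medians of 0.52 and 1.78, while the share of all probes counted as higher was 12.9% and 28.1%. Limma called 2 as deposited and 3 centred, against 8.77% and 21.6% of all probes. Probe 1org-30b had log2 ratios of -3.70 and -2.58 at day 3 and -0.75 and -0.84 at day 10, a difference of 2.35. Probes 1org-30c (1.96) and 1org-30d (1.25) were the other two counted. MiR-30e (1org-30e) and 1org-30a, whose microRNAs differ by U13C, were at -0.41 and -0.38, the closest differences of any pair with a shared seed. Of the 3 miR-29 probes, which read microRNAs known to restrain interferon-gamma production, 1org-29c was higher (1.35), and all 3 were after centring. Limma called 0 of them as deposited and 3 centred, against the same limma shares of all probes as for miR-30.

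**Figure D3:**
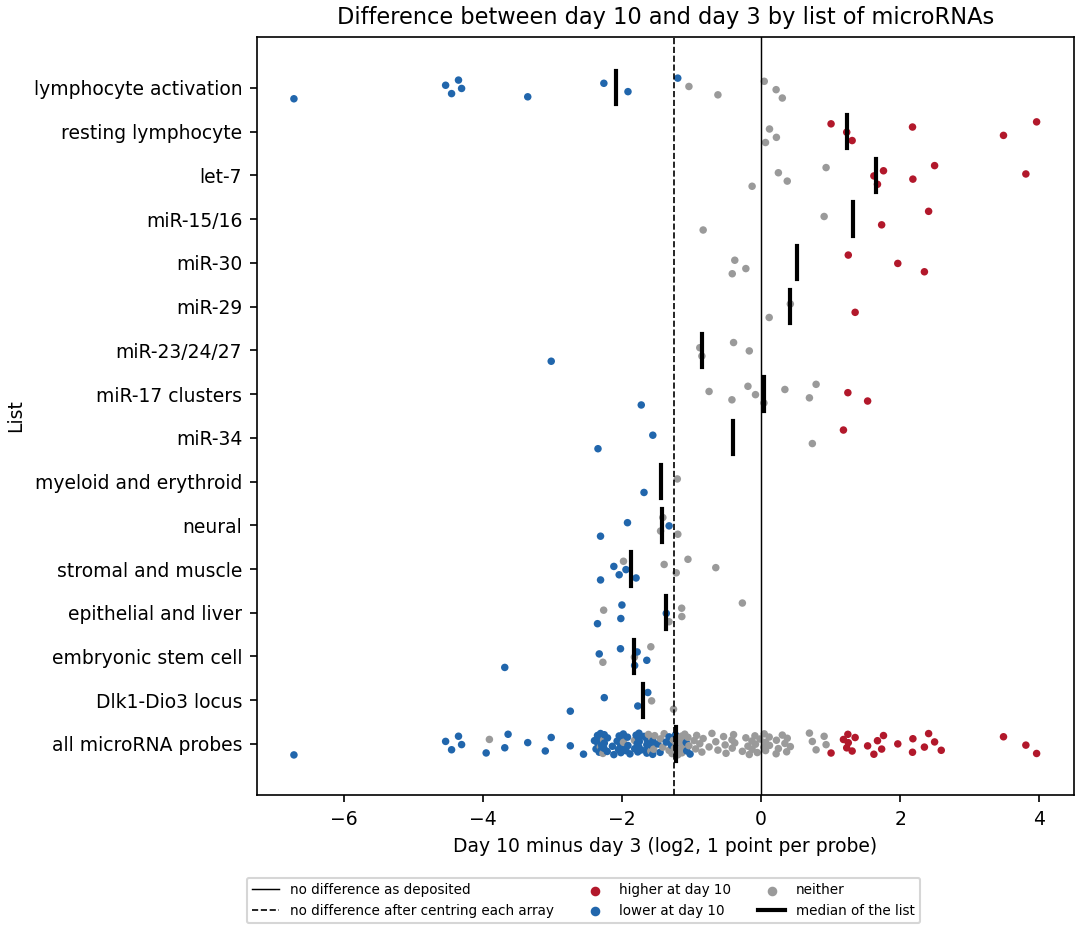
Difference between day 10 and day 3 (log2) for every probe of the 15 lists, 1 point per probe, with the list median as a bar. The solid line is no difference as deposited and the dashed line no difference after centring (-1.26). The resting lymphocyte and let-7 medians are at 1.23 and 1.65, and the activation median is at -2.09.

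Several microRNAs were above naive at both times, among them 2org-210, 2org-222, 2org-221 and miR-21 of the activation list. Probe 2org-210, numbered as miR-210, the microRNA of the hypoxia response, had log2 ratios of 4.94 and 5.12 at day 3 and 4.67 and 4.16 at day 10. No probe was further above naive in its pair mean on either day. Its difference of -0.62 was under 2-fold (limma adjusted p = 0.40), and it was 0.64 after centring.

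Probe 2org-222, numbered as miR-222, known with miR-221 to target the cell cycle inhibitor p27, had log2 ratios of 2.48 and 2.80 at day 3 and 2.67 and 2.69 at day 10. Its difference of 0.05 was among the smallest as deposited of probes at least 2-fold from naive on both days. Probe 2org-221, from the same stretch of the X chromosome, differed by 0.31, and miR-21 (1org-21), a survival microRNA, by 0.22. After centring all 3 were counted as higher, at 1.30, 1.56 and 1.47, and limma called 2org-221 and miR-21 (adjusted p = 0.018 and adjusted p = 0.026) but not 2org-222 (adjusted p = 0.057). Whether these rose or held their level thus rests on the baseline.

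The miR-34 probes split. Probe 1org-34c, annotated to miR-34a despite its ID, had log2 ratios of 3.00 and 3.14 at day 3 and 4.21 and 4.30 at day 10, a difference of 1.18. It was counted as higher but limma did not call it as deposited (adjusted p = 0.097, centred adjusted p = 8.0e-05). MiR-34a is a transcriptional target of p53. Probe 2org-34 was close to it, at 3.60 and 3.30 at day 3 and 4.22 and 4.15 at day 10, and its difference of 0.74 was counted after centring (1.99). MiR-34b (1org-34b, -2.34) and 1org-34a (-1.56), annotated to miR-34c, were lower. After centring 1org-34a was at -0.30 and no longer counted.

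Probe 1org-148 was the one rise among the 12 largest that started above naive as deposited (day 3 mean -0.09 after centring). It had log2 ratios of 0.30 and 1.15 at day 3 and 3.24 and 3.38 at day 10, a difference of 2.59 (limma adjusted p = 0.00067). Its ID carries no letter and was read as miR-148a, a microRNA found in repeatedly stimulated helper T cells, and miR-148b could not be told apart from it. Probe 1org-152, whose microRNA has the same seed and 3 mismatches over 21 bases, had 1.94 and 1.29 at day 3 and -0.65 and -0.53 at day 10, a difference of -2.21. After centring it was at -0.95, under the threshold (limma adjusted p = 0.17). The gap of 4.80 between the probes was the largest for any pair with a shared seed.

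In the miR-23/24/27 list 1 of 5 probes, miR-23b, was lower and 0 higher, against 41.5% and 12.9% of all probes. MiR-23a (1org-23a), which differs from miR-23b near its 3′ end, was at 2.50 and 2.67 at day 3 and 2.51 and 1.87 at day 10, a difference of -0.40. MiR-27a (1org-27a, -0.17), 1org-27b (-0.85) and 1org-24 (-0.88) were not counted as deposited. After centring miR-27a was counted as higher (1.09), against 28.1% of all probes, and miR-23b remained lower, against 13.5%. The clusters of miR-17 and its relatives, which promote lymphocyte proliferation, had 2 of 11 probes higher and 1 lower (median 0.04), against 12.9% and 41.5% of all probes. After centring 8 were higher and 0 lower (median 1.30), against 28.1% and 13.5%. Limma called 1 higher and 1 lower as deposited, against 8.77% and 43.9% of all probes, and 5 higher centred, against 21.6%. The 2 higher were miR-25 (2org-25, 1.53) and 1org-106b (1.25), which lie with miR-93 (0.34) in the gene Mcm7 on chromosome 5. After centring miR-93 was counted too (1.60). The lower one was 2org-17-3p (-1.72), which was not counted after centring (-0.46).

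The lists of other tissues had 0 probes higher, against 12.9% of all probes as deposited and 28.1% after centring. As deposited 5 of 10 stromal and muscle probes, 3 of 6 neural, 4 of 9 epithelial and liver and 6 of 9 embryonic stem cell probes were lower, against 41.5% of all probes. Their medians were -1.87, -1.43, -1.36 and -1.82. After centring the counts were 1, 1, 1 and 2, with medians of -0.61, -0.17, -0.10 and -0.56, against 13.5% of all probes. Of the Dlk1-Dio3 locus, an imprinted cluster, 4 of 6 were lower as deposited (median -1.70, 41.5% of all probes) and 1 after centring (median -0.44, 13.5% of all probes). Of the myeloid and erythroid probes, 1org-144 was lower (-1.68, centred -0.42) and 2org-223 (-1.20) was not counted, and 0 were after centring. Limma called 6 stromal and muscle, 3 neural, 4 epithelial and liver, 9 embryonic stem cell, 5 Dlk1-Dio3 and 1 myeloid and erythroid probes lower as deposited, against 43.9% of all probes. After centring it called 1 embryonic stem cell and 1 Dlk1-Dio3 probe, against 7.6%. Whether these probes were above background is unknown.

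Each difference can be read within 1 dye orientation, which takes off the probe's dye effect: day 10 minus day 3 on the arrays with activated RNA in Cy5, and on those with it in Cy3. Across the 171 probes these differences, from separate arrays, correlated at r = 0.82, a description over probes that share their arrays. They had opposite signs for 32 probes as deposited and for 46 after centring. Over all probes the Cy5 median was -0.68 and the Cy3 median -1.69, so the median was lower on the arrays with activated RNA in Cy3. MiR-155 was at -4.42 in Cy5 and -4.65 in Cy3, 2org-214 at -5.70 and -7.72, 1org-150 at 4.53 and 3.39, and let-7g at 4.27 and 3.34. Pairs that do not overlap have the same sign in both orientations by construction, so the sign of a counted probe adds nothing here.

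**Figure D4:**
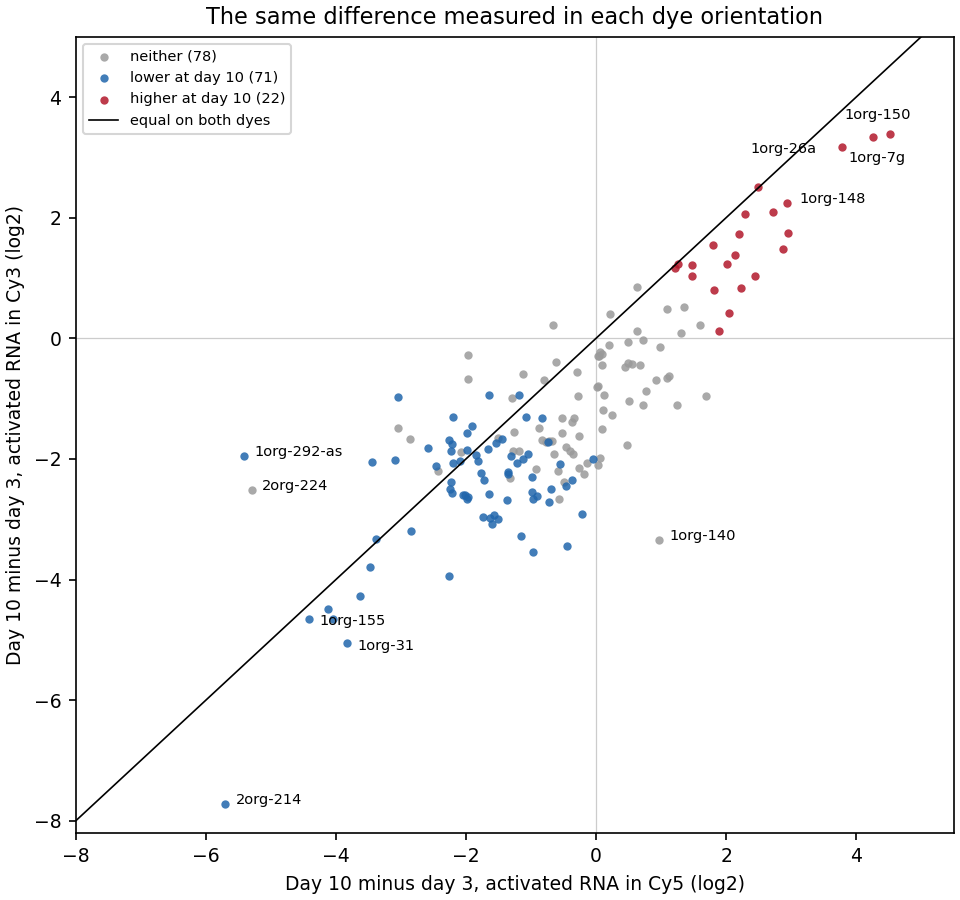
Day 10 minus day 3 (log2) for each of the 171 microRNA probes, on the arrays with activated RNA in Cy5 (x axis) and on those with it in Cy3 (y axis); the solid line is equality. Most points lie below the line, as the medians of -0.68 and -1.69 give. Counted probes have the same sign on both axes by the rule that counts them.

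When both orientations had to have the sign of the mean difference, in place of pairs that do not overlap, 22 probes were higher and 101 lower. This added 30 probes on the lower side and 0 on the higher. Probe 2org-224 had the largest difference of those not counted, -3.90, with log2 ratios of 6.22 and -0.40 at day 3 and 0.92 and -2.91 at day 10. The day 3 arrays were thus further apart than the means of the days. With its common SE, limma still called 2org-224 lower (adjusted p = 1.0e-07, centred adjusted p = 2.0e-05). Probes 1org-200a and 1org-200b, for the epithelial miR-200 family, also swung with the dye, from 3.29 to -2.46 and from 3.67 to -2.31 at day 3.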

How the data were processed

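The deposited table, made by the authors, holds 1 log ratio per probe and array with no missing value, read here as log2. The steps before these values (scanning, background, normalization) were not given in the sources used here. As deposited, the day 3 arrays correlated over microRNA probes at r = -0.66 and the day 10 arrays at r = -0.43, so the values had not been turned for the dye swap. The number of arrays limits the precision. Of 178 probes, 61 were annotated to 1 gene, 1 to several and 116 to none, and 50 of the 61 matched a current GRCm38.p6 symbol.

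Day differences came from pair means, with no test in the main rule. A 2-sided limma fit (version 3.58.1, R 4.3.3) was an alternative, beside other centrings, a 4-fold threshold, single dye orientations and leaving out each array. The fit was first run on simulated arrays with independent noise of equal size, which does not test the calls made here. Lists took probes by the number in the ID, with annotated probes alone as an alternative. Named probes were the 12 largest counted differences in each direction and 6 in each after centring, up to 4 of each of 15 lists, the 4 smallest differences as deposited (at least 2-fold from naive on both days) and centred, and the seed pairs most and least alike. Further let-7, miR-15b, miR-21, miR-142, miR-181, miR-182, miR-210, miR-221, miR-27a, miR-93, miR-98, miR-200 and 2org-224 probes were chosen after their values were seen. The members and lists were chosen with earlier results of these data known.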

Additional observations from a re-analysis of the deposited data

How the results depend on the processing

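The counts of 22 probes higher and 71 lower and the median difference of -1.22 depended on the baseline. Centring each array on the microRNA median gave 48 higher, 23 lower and a median of 0.0355, centring with scaling to equal spread gave 51, 19 and -0.045, and centring on the other small RNAs gave 9, 120 and -2.27. The same-dye rule with centring gave 50 higher and 27 lower, limma with centring 37 and 13, and a difference of at least 2 (4-fold) 9 and 37. The arrays with activated RNA in Cy3 alone gave 109 lower. Leaving out 1 array at a time gave 19 to 28 higher, 66 to 102 lower and medians from -1.57 to -0.61. Of the 93 counted probes, 88 kept their direction under centring on microRNAs, 92 under centring on other small RNAs and 86 with scaling. Centring on microRNAs raises every difference, so the 22 higher probes could not change direction there. Centring on other small RNAs lowers every difference, so the 71 lower probes could not change direction there. In the single-orientation and leave-one-out settings the rule that counts a probe fixes its direction. MiR-96 turned from -1.20 to 0.0605 when centred and to 1.05 when scaled as well, and miR-301 (1org-301) from -1.48 to 0.32 when scaled. These settings move the baseline by construction. With annotated probes alone, 4 of 6 activation, 3 of 5 let-7 and 1 of 1 resting lymphocyte probes were counted in the direction of the full list. Of all 61 annotated microRNA probes, 30 were lower and 7 higher. The 1 resting lymphocyte probe was miR-26b. No detection call was used, so what signal over background limits is unknown. The labels give no replicate numbers, so the dye orientation, as the dye term in limma, was the one block used: it gave 15 higher and 75 lower.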

Other observations

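The 7 probes for other small RNAs were not part of the microRNA counts. Their differences between day 10 and day 3 were 2.43 for tRNA-his, 1.86 for tRNA-ala, 1.55 for 4.8S_U6-snRNA, 1.04 for tRNA-met, 0.05 for tRNA-pro, -0.50 for AJ007734_snRNA and -0.57 for 5.4S_snRNA. After centring on the microRNA median, tRNA-pro was at 1.31. The log2 ratios of tRNA-his were -3.69 and -3.60 at day 3 and -1.10 and -1.34 at day 10. Both days lay below naive, and the pairs did not overlap.

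The probes that follow were chosen after their values were seen. MiR-22 (1org-22) had log2 ratios of 2.36 and 3.78 at day 3 and 0.74 and 0.80 at day 10, a difference of -2.30. Probes 1org-130a and 1org-130b, whose microRNAs share a seed, had differences of -1.64 and -0.09. After centring they were at -0.38, no longer counted as lower, and 1.17, counted as higher. Probe 1org-130b was above naive on all 4 arrays, while 1org-130a was above it at day 3 and below it at day 10. Probe 1org-146, numbered as the inflammation-induced miR-146, had 0.64 and 0.77 at day 3 and -1.34 and -1.07 at day 10, a difference of -1.91. It belongs to the activation list. After centring it was at -0.66, under the threshold. Probe 1org-140 gave 0.97 with activated RNA in Cy5 and -3.34 with it in Cy3, so its direction could not be set.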
